A study of Mus musculus with 12 samples.

Results

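The genes described here are 10 transcripts of regulated peptide secretion, taken by symbol from the 21872 symbols of the deposited count table, and all 10 had reads. They comprise the granins Scg2, Vgf, Chga and Chgb, the neuropeptide precursors Adcyap1, Cartpt, Nts, Tac2 and Nmb, and Crhbp, the binding protein of corticotropin-releasing hormone. The study sequenced messenger RNA from bulk tissue of prefrontal cortex (PFC) and striatum (STR) of C57BL/6J mice aged 24 postnatal days. The lesioned animals carry the genotype label ADHD, for attention-deficit/hyperactivity disorder, which they model after exposure to 6-hydroxydopamine (6-OHDA), a dopamine neuron toxin. There were 4 groups of 3 libraries: control PFC, lesioned PFC, control STR and lesioned STR. All groups share strain and age, the labels name no engineered allele, and the lesioned groups differ from the controls by the toxin. The sources used here give no dose, route or day for the toxin and no treatment for the controls. Whether replicate libraries stem from different animals is not labelled either, so p-values reflect only library-to-library spread, which may be technical.

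Granins are acidic proteins of the dense-core secretory granule. They aggregate with hormones and peptides in the trans-Golgi network, help granules to form, and are themselves cut by prohormone convertases into smaller peptides. Neuropeptides are made as precursors, packed into the same granules, processed there and released on sustained activity, after which they act on G protein-coupled receptors of nearby cells. In the forebrain many of these genes are induced through cAMP and calcium signalling, which acts on the transcription factor CREB at cAMP response elements in their promoters.

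Because that element is known as a regulatory sequence of many of these genes, the reference promoters were searched for it. RefSeq windows (build GRCm38.p6, 250 bases before an annotated start) were held for 9 of the 10 genes, Vgf having no entry. These 9 genes had 10 windows, since Adcyap1 had 2. The counts that follow are of genes with a match in any window, whereas the shares are of single windows. The full element TGACGTCA stood in windows of 3 of these 9 genes (Scg2, Chgb and Cartpt), against 1.55% of all 32851 windows. Its half-site TGACG, counted on either strand and contained in the full element, was in windows of 7 of the 9, against 17.8% of all windows, and the letters TATAAA in those of 1 (Adcyap1), against 12.4%. The 30-base stretches around the match are printed 5′ to 3′ on the strand of the gene for the 3 full elements and for 3 half-sites, with the match in capitals. The capitals CGTCA mark the half-site read from the other strand.
Scg2: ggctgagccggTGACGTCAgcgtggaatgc
Chgb: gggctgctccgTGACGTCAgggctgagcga
Cartpt: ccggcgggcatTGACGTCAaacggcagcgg
Chga: ggggcggtcctaTGACGtaatttcctgggt
Adcyap1: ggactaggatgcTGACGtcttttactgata
Nts: attagggaagatCGTCActttccatcaagg

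The Scg2 stretch is chr1:79440076-79440105 on the minus strand and its element begins 68 bases before the annotated start. The Chgb stretch, chr2:132781559-132781588 on the plus strand, has its element 72 bases before the start. In Cartpt the element lies 112 bases before the start, in chr13:99900777-99900806 on the minus strand. The half-sites lie 44 bases before the start of Chga (chr12:102554885-102554914, plus), 91 before that of Adcyap1 (chr17:93198914-93198943, plus) and 166 before that of Nts (chr10:102490567-102490596, minus). The stretches of Scg2, Chgb and Cartpt overlap an exon of a GENCODE transcript that starts farther upstream, and those of Chga, Adcyap1 and Nts overlap none. A match shows only that these letters are in the window. Crhbp also had a half-site, and Tac2 and Nmb had none within the window.

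Depth was 15078631 to 20925452 counts per library, so that 3 counts, taken as the limit of detection, were 0.143 to 0.199 CPM, in which a count is scaled by its library's size. Such a limit covers counting error only. Levels are given as CPM normalised with TMM factors over all 12 libraries, and fold changes are edgeR values on the log2 scale with their standard error (SE). Left out of these fits were 1830 rows whose counts are all multiples of 11, among them no gene of the 10. Each comparison was fitted on its own 6 libraries, and alternatives such as DESeq2, voom, a fit of all 12 libraries with a shared spread, or those rows kept are named where they change a call. Markers of the labelled tissue were in place: summed cortical excitatory neuron markers were 5291 to 6029 CPM in PFC and 652 to 1912 in STR, and striatal projection neuron markers 1373 to 2322 in PFC and 3709 to 18585 in STR. A pair of striatal libraries stood apart. Lesioned STR library 1 had the highest projection neuron sum, 18585 CPM against 3709 to 10255 in the other striatal libraries. It also had the lowest sum of hypothalamic and basal forebrain border markers, 687 CPM against 1166 to 1936. Control STR library 2 had 2214 CPM of choroid plexus and ependymal markers against 57.6 to 134 in the other striatal libraries. The biological coefficient of variation was 5.78% among PFC libraries and 14.9% among STR libraries.

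Which of these genes are abundant in each region was asked first. Granins were the most abundant of the 10 in both regions, and the order below them differed. Compared per kilobase of exon (CPM per kb, which allows comparison between genes), control PFC held Chgb at 165.9 ± 8.20, Scg2 at 91.2 ± 4.14, Vgf at 82.2 ± 2.65 and Chga at 54.6 ± 2.62 (mean ± SD, n = 3), and no neighbours among these overlapped. Crhbp (11.2 ± 1.10) and Adcyap1 (8.50 ± 0.42) came next. Tac2 (3.81), Cartpt (3.09) and Nmb (2.18) overlapped with their neighbours in that order, and Nts was last at 0.591 ± 0.206. In control STR, Scg2 led at 158 ± 26.9, and its range overlapped that of Chgb at 98.2 ± 29.6, which overlapped that of Vgf at 78.5 ± 8.85. Chga followed at 58.5 ± 7.91, then Nts at 23.5 ± 4.71 and Cartpt at 11.8 ± 1.61. Tac2 (6.88), Crhbp (3.65), Adcyap1 (2.60) and Nmb (2.39) each overlapped the next. Nts thus ranked 10 of 10 in PFC and 5 of 10 in STR, whereas Crhbp and Adcyap1 ranked 5 and 6 in PFC and 8 and 9 in STR.

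The difference between the regions was tested next. In controls 7 of the 10 genes differed between STR and PFC (edgeR, adjusted p below 0.05), 4 higher and 3 lower in STR. Of all 14239 genes tested, 42.3% differed, 21.3% higher and 21% lower, so that a difference between regions was common in the whole table. The libraries of the 2 regions did not overlap for 6 of the 10 genes, against 55.4% of all genes. The median log2 fold change was 0.09 over the 10 genes and 0.02 over all genes. All 15 hypothalamic and basal forebrain border markers tested were also higher in control STR, with a median log2 fold change of 5.14. They summed to 1166 to 1936 CPM in control STR and 161 to 198 CPM in control PFC. Of 10 choroid plexus and ependymal markers tested, 9 were higher and 0 lower in STR (median 4.36). The part of these lists in the regional values of the 10 genes was not tested.

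Nts, the precursor of neurotensin (chr10:102481756-102490486, minus strand), differed most. Its level was 0.546, 0.638 and 1.03 CPM in the control PFC libraries and 34.1, 22.8 and 31.0 CPM in the control STR libraries. All PFC libraries had at least 10 reads of it, above the limit of 3, and every striatal library was far above every cortical one. The log2 fold change was 5.34 (SE 0.25, adjusted p = 8.58e-06), a 40.5-fold difference.

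Cartpt, the precursor of the CART peptide (chr13:99898489-99901091, minus), was 4.66, 2.93 and 4.26 CPM in control PFC and 16.8, 15.6 and 12.8 CPM in control STR. The groups did not overlap, and the log2 fold change was 1.92 (SE 0.19, adjusted p = 0.000133). Scg2, precursor of the granin peptide secretoneurin (chr1:79434669-79440120, minus), had 238, 232 and 218 CPM in control PFC. It had 428, 319.6 and 444 CPM in control STR, with every striatal library above the cortical ones (log2 0.80, SE 0.12, adjusted p = 0.00117). Tac2, which encodes neurokinin B (chr10:127724478-127731768, plus), was 5.75, 4.72 and 5.28 CPM in PFC and 11.4, 5.32 and 11.7 CPM in STR. The value of control STR library 2 fell within the cortical range, so the groups overlapped although the gene was called higher in STR (log2 0.85, SE 0.28, adjusted p = 0.0411). The Tac2 call was lost with voom (adjusted p = 0.0587), with a GC and length correction (0.0571) and without each of the control PFC libraries or control STR library 1 or 3 (0.0756 to 0.133). Without control STR library 2 its log2 fold change was 1.14.

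Chgb, Adcyap1 and Crhbp were lower in STR. Chgb, chromogranin B (chr2:132781278-132795079, plus), was 435, 479 and 449 CPM in control PFC and 217, 363 and 228 CPM in control STR (log2 -0.75, SE 0.18, adjusted p = 0.0108). Adcyap1 encodes PACAP, a peptide that raises cAMP in its target cells (chr17:93199017-93206537, plus). It was 30.9, 33.9 and 31.6 CPM in PFC and 8.90, 9.07 and 11.4 CPM in STR (log2 -1.70, SE 0.11, adjusted p = 2.69e-05). Crhbp, a secreted protein that sequesters corticotropin-releasing hormone (chr13:95431371-95444924, minus), was 18.3, 20.0 and 22.2 CPM in PFC and 4.30, 10.3 and 5.08 CPM in STR (log2 -1.62, SE 0.28, adjusted p = 0.00252). None of these 3 genes overlapped between regions. Control STR library 2 was the highest striatal library for Chgb and Crhbp. Without it their log2 fold changes were -1.03 and -2.09.

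Vgf, Chga and Nmb were not called between the control regions. Vgf, a granin-like precursor first found as a gene induced by nerve growth factor (chr5:137026392-137033351, plus), was 236, 245 and 252 CPM in PFC and 251, 203 and 246 CPM in STR. Its log2 fold change was -0.06, with a 95% interval of -0.26 to 0.14. Chga, chromogranin A (chr12:102554969-102565028, plus), was 147, 145 and 159 CPM in PFC and 169, 136.5 and 178 CPM in STR. Its log2 fold change was 0.10, with an interval of -0.12 to 0.33, and it was called higher in STR only without control STR library 2 (0.21, adjusted p = 0.0183). Nmb, the precursor of neuromedin B (chr7:80902227-80905076, minus), was 3.27, 0.893 and 1.03 CPM in PFC and 1.80, 1.91 and 1.98 CPM in STR. The PFC libraries held both the highest and the lowest of these 6 values, and the log2 fold change was 0.09 (interval -0.98 to 1.15). Without control PFC library 1 it was 0.97 and called (adjusted p = 0.0343), so that 1 library decides it.

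**Figure D1:**
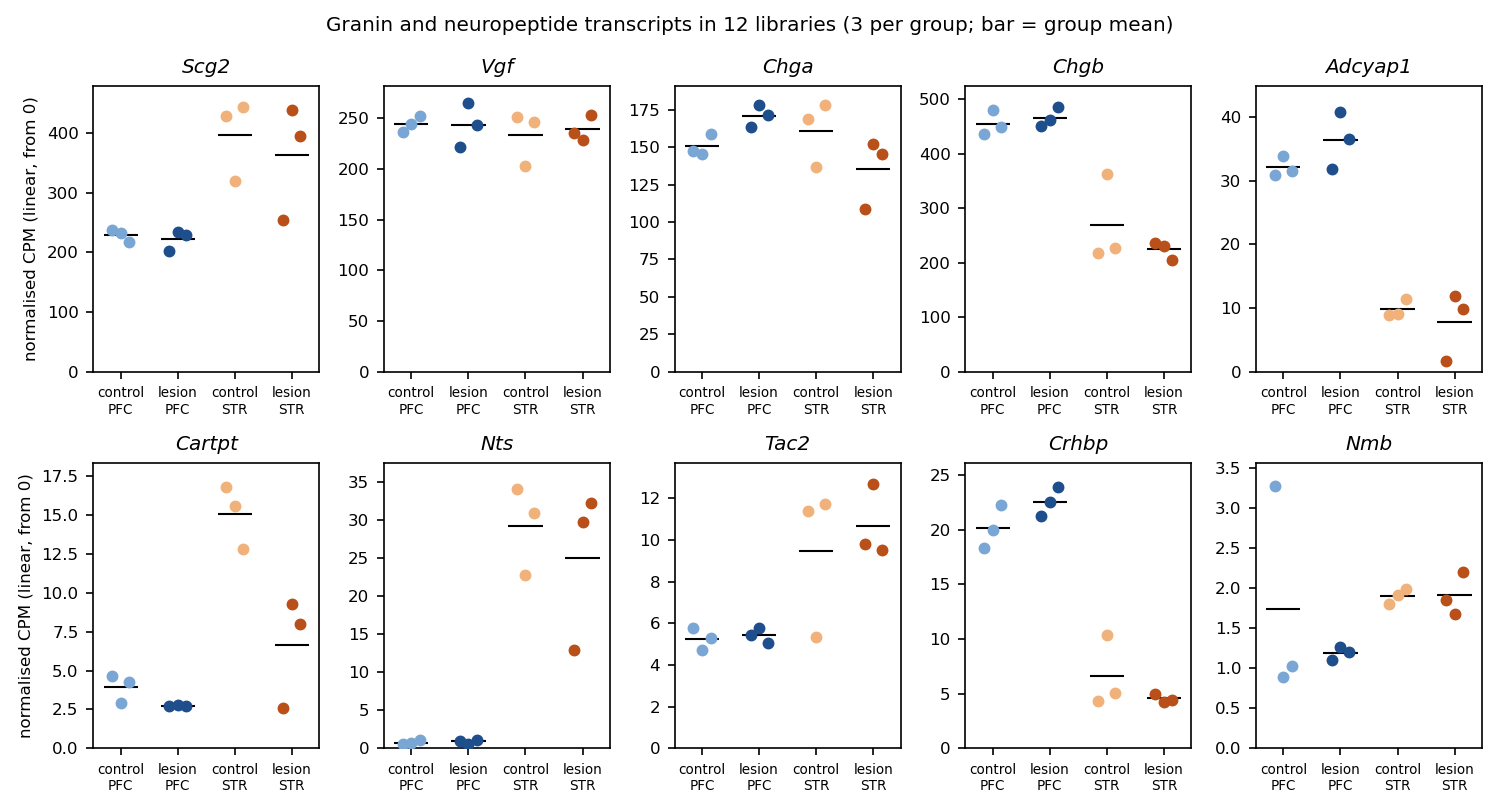
Normalised CPM (y axis, linear from 0) of the 10 genes in the 12 libraries. Points are libraries, bars are means of 3. Nts, Cartpt and Scg2 lie higher in both striatal groups' means, Chgb, Adcyap1 and Crhbp lie lower, and lesioned STR library 1 is the lowest striatal point for Scg2, Chga, Adcyap1, Cartpt and Nts.

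After the lesion, 8 of the 10 genes differed between the regions, 5 higher and 3 lower in STR, where 45.2% of the 14206 genes tested differed, 22.7% higher and 22.5% lower. The groups were apart for 8 of the 10 genes, against 58.3% of all genes. The 7 genes called in controls were called again with the same sign, and Nmb joined them (log2 0.68, SE 0.22, adjusted p = 0.0371). Nts was 4.76 (SE 0.44), Cartpt 1.28 (SE 0.42), Tac2 0.97 (SE 0.15) and Scg2 0.70 (SE 0.19) on the log2 scale. Crhbp was -2.31 (SE 0.11), Adcyap1 -2.21 (SE 0.48) and Chgb -1.06 (SE 0.08). Chga was -0.34 (SE 0.12) and missed the threshold (adjusted p = 0.0553), although its groups did not overlap. It passed in 7 of 18 alternatives, among them DESeq2 (adjusted p = 0.0327), in a range of 0.0109 to 0.151.

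The calls for Scg2, Cartpt and Nmb after the lesion were the least stable. Cartpt overlapped between regions because lesioned STR library 1, at 2.59 CPM, lay below the lesioned PFC libraries at 2.72, 2.76 and 2.71 CPM. Without that library its log2 fold change was 1.65, that of Scg2 was 0.90 and that of Adcyap1 was -1.74, and all 3 were called, as were 9 of the 10 genes. Without any 1 lesioned PFC library, or without lesioned STR library 3, Cartpt (adjusted p = 0.106 to 0.120), Scg2 (0.0520 to 0.0733) and Nmb (0.0875 to 0.125) were all lost, and Cartpt also without lesioned STR library 2 (0.104). Nmb was also lost with DESeq2 (0.0971), voom (0.0547), the fit of all 12 libraries (0.192) and the multiples of 11 kept (0.0702).

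The next question was what the 6-OHDA lesion did to the genes in PFC. In PFC, 0 of the 10 genes changed by the edgeR test, where 5.73% of the 14018 genes tested did. At an unadjusted p below 0.05 there were 2 (Chga and Cartpt), against 20.6% of all genes, and DESeq2 and voom each called 1, Chga. The lesioned and control libraries were apart for these 2 genes, against 25.4% of all genes. The median log2 fold change was 0.03 over the 10 genes and -0.01 over all genes.

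Chga was 147, 145 and 159 CPM in control PFC and 164, 178 and 171 CPM in lesioned PFC. Every lesioned library was above every control library, and the log2 fold change was 0.18 (SE 0.05, unadjusted p = 0.00328, adjusted p = 0.0543), 1.14-fold. The adjusted p was 0.0324 with DESeq2, 0.0493 with voom, 0.0486 with upper-quartile factors, 0.0296 with the GC and length correction and 0.0303 without control PFC library 3, in a range of 0.0266 to 0.629 over all 18 alternatives. Chga is therefore a case at the threshold, with a small and positive value in every alternative (0.15 to 0.22). Summed astrocyte markers moved in the same libraries: they were 6651 to 6912 CPM in control PFC and 5944 to 6136 CPM in lesioned PFC, 6 of the 11 markers were called lower and none was at 0. Of the 10 marker lists, 4 had sums without overlap between the PFC groups, all lower after the lesion. The others of these were vascular markers (427 to 483 CPM in controls and 386 to 403 after the lesion, 3 of 10 called lower), cortical excitatory neuron markers (5756 to 6029 and 5291 to 5667, 1 of 15 tested called higher and 1 lower) and border markers (161 to 198 and 145 to 157, none of 11 tested called). Although the cortical sum was lower, 11 of the 15 cortical markers tested had positive values, with a median log2 fold change of 0.04. Of the 12 oligodendrocyte markers, whose sums overlapped, 2 were called lower. The part of these lists in the PFC values of Chga and of the other genes was not tested. In bulk tissue, fewer cells of a type and less RNA per cell cannot be told apart.

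Cartpt was 4.66, 2.93 and 4.26 CPM in control PFC and 2.72, 2.76 and 2.71 CPM in lesioned PFC. The 3 lesioned libraries nearly coincided and lay just under the lowest control library (log2 -0.54, SE 0.20, adjusted p = 0.138), and the gene was called only without control PFC library 2 (-0.71, adjusted p = 0.0367). The other granins were nearly level, with intervals that hold the change to small sizes. Scg2 was 203, 234 and 229 CPM in lesioned PFC (log2 -0.05, interval -0.18 to 0.08), Vgf 221, 265 and 244 CPM (-0.01, interval -0.14 to 0.12) and Chgb 450.2, 462 and 485 CPM (0.03, interval -0.07 to 0.14). These 3 overlapped with their controls. Adcyap1 was 31.9, 40.7 and 36.5 CPM after the lesion, with 2 of the 3 libraries above all controls (log2 0.18, interval -0.01 to 0.36). Crhbp was 21.3, 22.5 and 23.9 CPM, again with 2 above all controls (0.16, interval -0.03 to 0.36). Tac2, at 5.44, 5.77 and 5.05 CPM, had an interval of -0.27 to 0.35.

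Nts and Nmb were too sparse in PFC for a narrow answer. Nts was 0.994, 0.601 and 1.14 CPM in lesioned PFC, 10 to 19 reads per library over both groups, and its interval ran from -0.46 to 1.14. Nmb was 1.10, 1.26 and 1.2 CPM, with an interval of -1.54 to 0.29. Its log2 value of -0.62 rests on control PFC library 1 and was 0.30 without it.

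In STR, 0 of the 10 genes changed with the lesion by the edgeR test, where 0.028% of the 14288 genes tested did. At an unadjusted p below 0.05 there was 1, Cartpt, against 17.3% of all genes, and neither DESeq2 nor voom called any of the 10. DESeq2 called 529 genes in all. The groups were apart for 1 of the 10, against 25.8% of all genes. The median log2 fold change was -0.25 over the 10 genes and -0.00 over all genes.

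Cartpt was 16.8, 15.6 and 12.8 CPM in control STR and 2.59, 9.31 and 8.0 CPM in lesioned STR. All 3 lesioned libraries were below all controls, and the lowest, library 1, is 1 of the pair that stood apart. The log2 fold change was -1.18 (SE 0.39, unadjusted p = 0.0187, adjusted p = 0.221). Without lesioned STR library 1 and control STR library 2 it was -0.77 (SE 0.17, adjusted p = 0.103), and in a fit of all 12 libraries -1.17 (adjusted p = 0.0470). Over all 19 alternatives the value stayed between -1.51 and -0.77. Cartpt was lower without overlap in both regions, as were 3.31% of the 13824 genes tested in both. Projection neuron markers were also apart between the groups, at 3709 to 5755 CPM in control STR and 7208 to 18585 CPM in lesioned STR. All 19 of them had positive values with a median log2 fold change of 1.28, and none was at 0 in a library. With edgeR 0 of the 19 were called, although all 19 had an unadjusted p below 0.05, against 17.3% of all genes. DESeq2 called 14 of the 19, against 529 of all 14288 genes, and voom called 0. Summed choroid plexus and ependymal markers were 126 to 2214 CPM in control STR and 57.6 to 110 CPM in lesioned STR, with negative values for all 10 tested and a median log2 fold change of -1.04. In each lesioned STR library 1 of the 13 listed was at 0. Microglia markers, none of them at 0, summed to 350.1 to 432 CPM in control STR and 435 to 559.7 CPM in lesioned STR. None of the markers of these lists was called with edgeR, and none of the choroid plexus, ependymal or microglia markers with DESeq2 or voom. The sums of the other 7 lists overlapped. The part of these lists in the Cartpt values was not tested.

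The granins in STR showed no change that passed. Scg2 was 254, 439 and 396 CPM after the lesion against 428, 319.6 and 444 CPM in controls (log2 -0.14, interval -0.64 to 0.37). Chga was 109, 152 and 145 CPM (log2 -0.26, interval -0.61 to 0.10), with 1 lesioned library below all controls. Chgb was 237, 231 and 205 CPM (-0.27, interval -0.74 to 0.20). Vgf was 235, 229 and 253 CPM (0.03, interval -0.21 to 0.27) and had the narrowest interval of the 10 genes in STR. The intervals in STR were wider than in PFC for the 4 granins.

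Among the peptide genes, Adcyap1 was 1.66, 11.96 and 9.80 CPM in lesioned STR, its library 1 far below the rest, and its interval ran from -1.63 to 0.97. Nts was 12.9, 29.8 and 32.3 CPM (log2 -0.23, interval -0.99 to 0.53). Without lesioned STR library 1 the log2 values of Scg2, Nts and Adcyap1 were 0.07, 0.08 and 0.14, against -0.14, -0.23 and -0.33 with it. Tac2 was 9.80, 12.7 and 9.51 CPM (interval -0.52 to 0.84), and Nmb 1.85, 1.68 and 2.2 CPM (interval -0.49 to 0.49). Crhbp was 4.99, 4.22 and 4.46 CPM (log2 -0.54, interval -1.32 to 0.25), and without control STR library 2 its value was -0.05. Chgb likewise was 0.01 without that library.

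**Figure D2:**
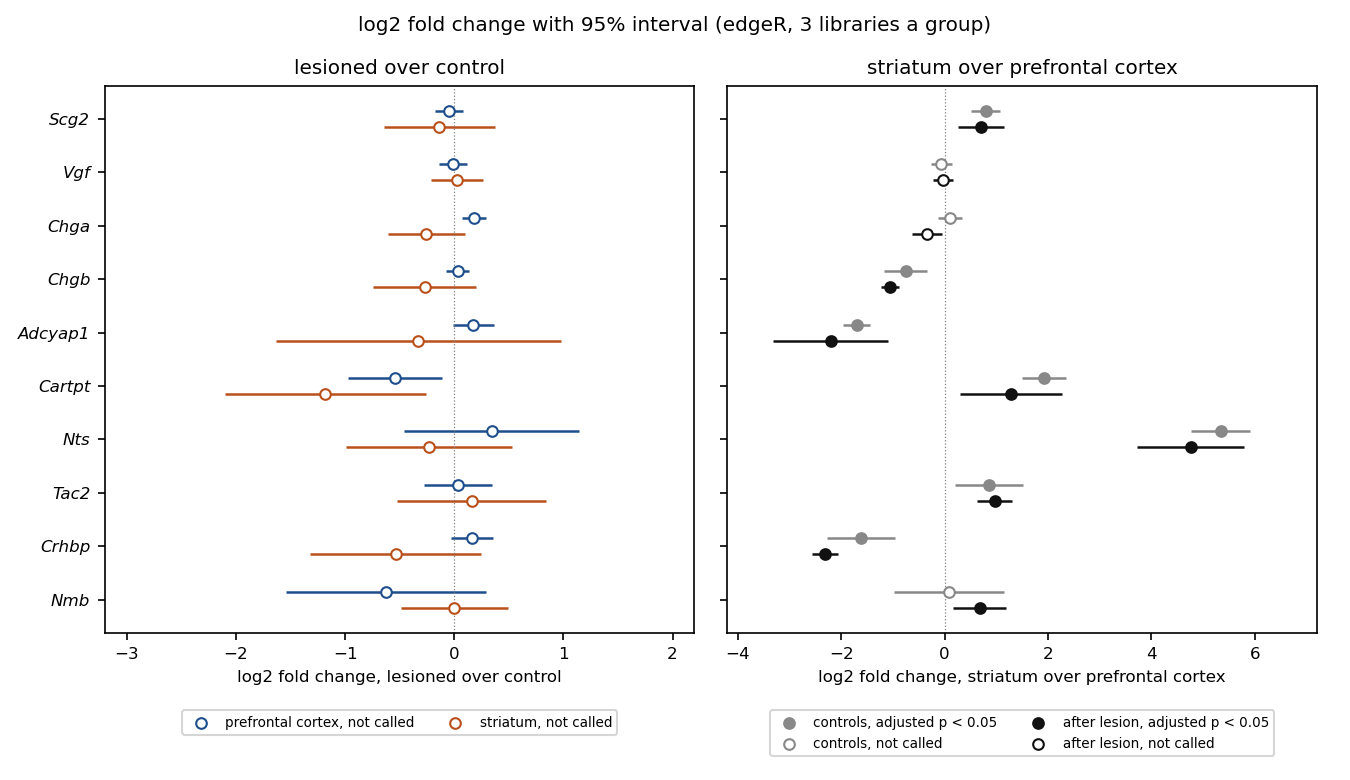
Log2 fold changes (x axis) with 95% intervals from edgeR, 3 libraries per group. Left, lesioned over control in PFC (blue) and STR (orange), with all points open since 0 of the 10 genes passed in either region. Right, STR over PFC in controls (grey) and after the lesion (black), with filled points at an adjusted p below 0.05.

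Whether the lesion effect differed between the regions was tested directly. Of the 10 genes 0 passed (0.0825% of 14545 genes did), 1 (Chga) stood at an unadjusted p below 0.05 (11.7% of all genes did), and neither DESeq2 nor voom called any. Chga was 0.18 in PFC and -0.26 in STR, a difference of -0.45 (SE 0.17, unadjusted p = 0.0236, adjusted p = 0.371). Without the 2 striatal libraries that stood apart the difference was -0.41 (SE 0.09, adjusted p = 0.0495). Those libraries were picked out in these same data, and lesioned STR library 1 was the lowest striatal library for Chga. Each striatal group then keeps 2 libraries. Over all 24 alternatives the adjusted p of the Chga difference ran from 0.0495 to 0.611. For Cartpt the difference was -0.64 (interval -1.72 to 0.43), and for Crhbp -0.70 (interval -1.44 to 0.04).

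The striatal libraries differed among themselves in a way that split the 10 genes. Lesioned STR library 1 was the lowest striatal library for Scg2, Chga, Nts, Adcyap1 and Cartpt, with deviations of -0.56, -0.43, -1.0, -2.17 and -1.84 from the mean of the 6 striatal libraries on the log2 scale. Control STR library 2 was the highest for Chgb and Crhbp, with deviations of 0.58 and 0.97, and the lowest for Tac2 and Vgf. In the first library the border markers summed to 687 CPM, over the 15 of 18 listed genes outside the rows left out as multiples of 11, none of which was at 0 in any striatal library. Choroid plexus and ependymal markers also had their lowest striatal sum there, 57.6 CPM, with 1 of the 13 at 0. The cortical marker sum was 1770.0 CPM in control STR library 2 against 652 and 872 CPM in the other control STR libraries, with 1 of its 16 markers at 0 in each. Lesioned STR library 1 had 1912 CPM. By the mean log2 CPM of the list, control STR library 2 was the highest (deviation 0.85) and lesioned STR library 1 came next (0.55). What part these other cell types have in the levels of the 10 genes was not tested. Among PFC libraries the deviations were smaller than 0.6 for every gene other than Nmb, which stood 1.32 above the mean in control PFC library 1.

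**Figure D3:**
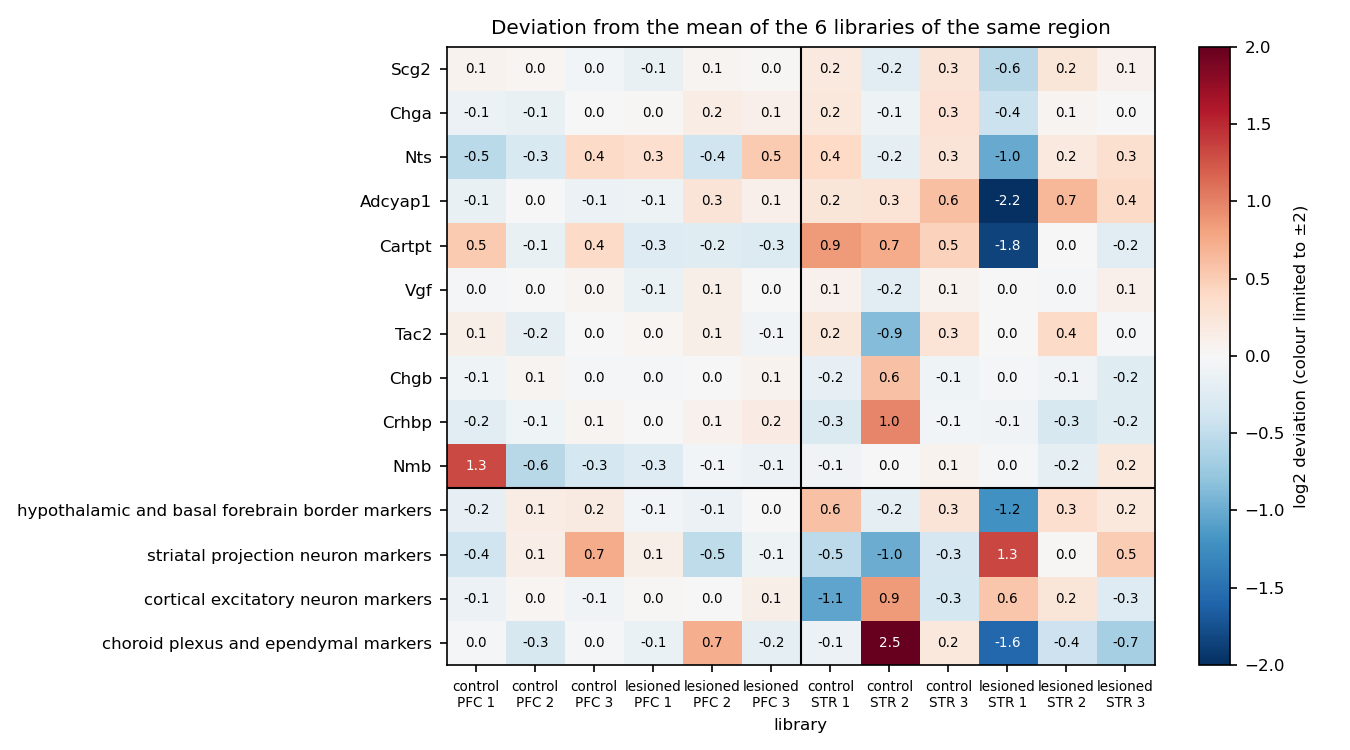
Log2 deviation of each library (x axis) from the mean of the 6 libraries of its region, for the 10 genes and 4 marker lists (y axis, mean log2 CPM of each list). Colour and printed values give the deviation, and the colour stops at 2 in either direction. Scg2, Chga, Nts, Adcyap1, Cartpt, the border markers and the choroid plexus and ependymal markers are low in lesioned STR library 1.

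The genes most like each of the 10 were named by Pearson's r of log2 CPM over the 12 libraries after subtraction of each region's mean, among 13673 genes of at least 1 CPM. These r values are descriptions, since the points share libraries and the largest of many were taken. Scg2 went most closely with Cbln2 (r = 0.98), Gabra3 and Esr1, Chga with Ank1 (0.97), Vwc2l and Megf11, Chgb with Tcf4 (0.99), Nck2 and Pls3, and Vgf with Cdh22 (0.88), Dmrtc1a and Fam8a1. Cartpt went with Ly6h (0.97), Efs and 1700007K13Rik, and Nts with Tmpo (0.95), Crocc2 and Dlk1. Crhbp went with Nptxr (0.97), Tanc1 and Arhgef4, Tac2 with Chml (0.92), Ap1s2 and Cenps, and Nmb with Ampd2 (0.87), Shisa8 and Cpsf7. Adcyap1 went with Tspan6 (0.97), Tmem215 and C530008M17Rik. Without the 2 striatal libraries that stood apart, r over 10 libraries was 0.93 for Chgb with Tcf4, 0.91 for Chga with Ank1, 0.90 for Cartpt with Ly6h and 0.84 for Scg2 with Cbln2. It was 0.53 for Tac2 with Chml and 0.35 for Adcyap1 with Tspan6, so that these likenesses rest largely on those libraries. For Nmb with Ampd2 and Shisa8, r was 0.97 and 0.89 over the 6 PFC libraries, where control PFC library 1 stood far above the rest, and 0.41 and 0.18 over the 6 STR libraries.

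The machinery that makes and reads the peptides was described from lists of other genes. Of 23 genes of granule formation and peptide processing, 20 were tested in PFC. With the lesion 3 rose and 0 fell by edgeR (3.45% and 2.28% of all genes tested), with a median log2 fold change of -0.01 over the list and -0.01 over all genes. Of the 20, 7 stood at an unadjusted edgeR p below 0.05, 4 of them with positive values, against 20.6% of all genes. DESeq2 called 5 (Cadps2, Cpe, Pcsk1, Pcsk2 and Pcsk6) and voom called 4, against 843 and 854 of all 14018 genes. Pcsk2, the prohormone convertase that cuts many neuropeptide precursors in the granule, was 561, 595 and 559 CPM in control PFC and 655, 669 and 698 CPM in lesioned PFC. All lesioned libraries were above all controls (log2 0.24, SE 0.04, adjusted p = 0.00864). The convertase Pcsk6 rose by 0.43 (SE 0.10, adjusted p = 0.0300) and Cadps2, which primes dense-core vesicles for release, by 0.22 (SE 0.06, adjusted p = 0.0340). Pcsk6 was lost without any 1 library other than control PFC library 2 (adjusted p = 0.0682 to 0.122), and so was Cadps2 (0.0638 to 0.158). In the fit of all 12 libraries none of the 3 was called (0.141 to 0.542). Cadps2 was also lost with the GC and length correction (0.0516) and with the multiples of 11 kept (0.0501), and Pcsk2 without lesioned PFC library 2 or 3 (0.0583 and 0.0584). Carboxypeptidase E, Cpe, which trims the cut peptides, was -0.12 (SE 0.04, adjusted p = 0.0645). It was called with DESeq2 (0.0391), with voom (0.0344) and without control PFC library 2 (0.0293).

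In STR 0 of the 22 processing genes tested passed with edgeR, where 0.028% of all genes did. An unadjusted p below 0.05 was found for 3 (Pcsk2, Pcsk6 and Cpd, all with positive values), against 17.3% of all genes. DESeq2 called 1 (Pcsk2), against 529 of all 14288 genes, and voom called 0. Pcsk2 was 199, 221 and 207 CPM in control STR and 428, 265 and 315 CPM in lesioned STR. The groups were apart, and the log2 fold change was 0.68 (SE 0.17, adjusted p = 0.181 with edgeR, 0.0123 with DESeq2 and 0.0190 in the fit of all 12 libraries). Pcsk6 was 0.35 (adjusted p = 0.195), Cpd 0.22 (0.223, and 0.0454 in the fit of all 12 libraries) and Pcsk5 -0.32 (0.328). The list's median was -0.02. Between the control regions 5 of the 22 processing genes were higher and 14 lower in STR, with a median of -0.30 against 0.02 for all genes, and the counts after the lesion were again 5 and 14. Of all genes, 21.3% were higher and 21% lower in controls, and 22.7% and 22.5% after the lesion.

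Of 17 receptors and binding partners of the peptides, 15 were tested in PFC. By edgeR 1 rose and 1 fell (3.45% and 2.28% of all genes did), with a median of -0.05. Among these 15, 6 stood at an unadjusted p below 0.05, 4 of them with positive values, against 20.6% of all genes. DESeq2 called 2 (Ntsr2 and Vipr1) and voom called 2. Vipr1, a receptor for PACAP and vasoactive intestinal peptide, was 37.7, 32.6 and 37.8 CPM in control PFC and 52.8, 48.7 and 46.3 CPM in lesioned PFC (log2 0.45, SE 0.07, adjusted p = 0.00388). Its groups were apart. Ntsr2, a neurotensin receptor, was 110.1, 91.6 and 107 CPM in control PFC and 86.3, 83.3 and 79.7 CPM in lesioned PFC, with every lesioned library lower (log2 -0.31, SE 0.07, adjusted p = 0.0164). Its call was lost without lesioned PFC library 2 or 3 or control PFC library 1 (adjusted p = 0.0555 to 0.0876), and in the fit of all 12 libraries neither Vipr1 (0.357) nor Ntsr2 (0.164) was called. The astrocyte and vascular markers that were called lower in the same PFC libraries are given beside Chga, and their part in the Ntsr2 and Vipr1 values was not tested. Adcyap1r1, the selective PACAP receptor, was 0.15 (SE 0.05, adjusted p = 0.0840) and Ntsr1 was 0.36 (SE 0.15, adjusted p = 0.188).

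In STR 0 of 14 receptors and binding partners tested passed with edgeR, and 4 stood at an unadjusted p below 0.05, against 17.3% of all genes. DESeq2 called 1 (Vipr1) and voom 0. Vipr1 was 7.73, 14.9 and 9.05 CPM in control STR and 25.2, 17.4 and 21.6 CPM in lesioned STR. The groups were apart (log2 1.01, SE 0.26, adjusted p = 0.182), and without the 2 libraries that stood apart the value was 1.21 (adjusted p = 0.0397). In the fit of all 12 libraries Vipr1 was also called (0.0191). Ntsr2 was -0.24 (adjusted p = 0.225), Tacr1, the substance P receptor, 0.69 (0.242) and C3ar1 -0.66 (0.247). The median was -0.12. Between the control regions 5 of the 14 were higher in STR and 3 lower, where 21.3% and 21% of all genes were. In those libraries Tacr3, the receptor of neurokinin B, was 3.84 higher (log2, adjusted p = 8.29e-05) and Vipr1 was -1.77 (adjusted p = 0.000365). Tacr3 was singled out after its values were seen, because its ligand gene Tac2 was also higher in STR.

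**Figure D4:**
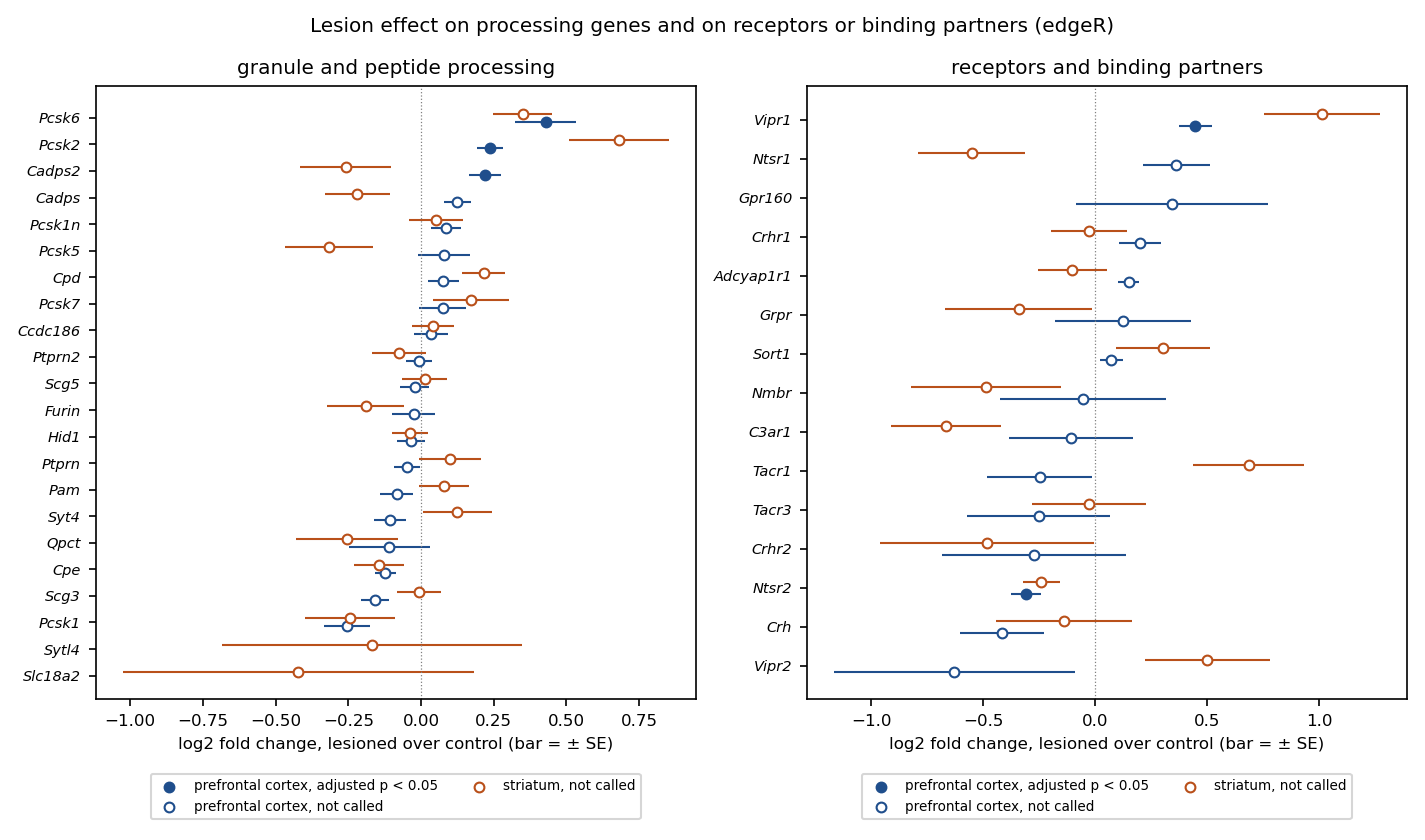
Log2 fold change of lesioned over control (x axis) with SE bars for genes of granule formation and peptide processing (left) and for receptors and binding partners (right), in PFC (blue) and STR (orange). Filled points passed an adjusted p of 0.05: Pcsk2, Pcsk6, Cadps2 and Vipr1 higher and Ntsr2 lower, all in PFC.

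A further list of 43 precursors of other neuropeptides gave 0 calls among 20 tested in PFC with edgeR, where 5.73% of all genes were called. DESeq2 and voom called 0 of them. An unadjusted edgeR p below 0.05 was found for 4, all with negative values, against 20.6% of all genes. The smallest p values belonged to Pdyn, the dynorphin precursor (log2 -0.23, adjusted p = 0.104), Trh (-1.15, 0.162), Agrp (-0.72, 0.210) and Crh (-0.41, 0.224). In STR the list gave 0 calls among 25 tested with edgeR, where 0.028% of all genes were called, 1 with DESeq2 and 0 with voom. An unadjusted edgeR p below 0.05 was found for 4, of which 2 had positive values, against 17.3% of all genes. Penk, the enkephalin precursor of striatal projection neurons, was 471, 312 and 522 CPM in control STR and 1329, 752 and 1026 CPM in lesioned STR. Its groups were apart (log2 1.25, SE 0.25, adjusted p = 0.157 with edgeR, 0.000155 with DESeq2 and 0.0332 in the fit of all 12 libraries). The projection neuron markers given beside Cartpt had a median log2 fold change of 1.28 in the same libraries. DESeq2 called 14 of those 19 markers, and their part in the Penk values was not tested. Nucb2 was 0.33, Vip -0.72 and Nppc -1.0, with adjusted p of 0.216, 0.247 and 0.256.

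Since Vgf, Scg2 and Adcyap1 are known as genes induced by neuronal activity, 26 other activity-regulated genes were read beside them. In PFC 6 of the 26 rose and 3 fell with the lesion, where 3.45% and 2.28% of all genes did. The list held 12 genes at an unadjusted edgeR p below 0.05, 8 with positive values, against 20.6% of all genes. DESeq2 called 8 of the list and voom 9, against 843 and 854 of all 14018 genes. The median log2 fold change was 0.10 over the list and -0.01 over all genes. Per1 (log2 0.64, adjusted p = 0.00645), Nr4a1 (0.55, 0.00360) and Dusp6 (0.31, 0.00893) rose, and Egr3 (-0.43, 0.00277) fell. Scg2, Vgf and Adcyap1 were -0.05, -0.01 and 0.18 in the same libraries, none of them called. Per1 and Dusp6 were lost without lesioned PFC library 2 (adjusted p = 0.0503 and 0.0729), and none of the 4 was called in the fit of all 12 libraries (0.206 to 0.657). In STR 0 of the 26 passed with edgeR, and 10 stood at an unadjusted p below 0.05, against 17.3% of all genes. DESeq2 called 5, against 529 of all 14288 genes, and voom called 0. Inhba was 1.17, Per1 0.87, Egr4 0.95 and Egr1 0.95 on the log2 scale, with adjusted p of 0.144 to 0.210 and the groups apart for all 4. In the fit of all 12 libraries these 4 were called (0.00852 to 0.0329). The median of the list in STR was 0.37. Scg2, Vgf and Adcyap1 were -0.14, 0.03 and -0.33 there, none of them called.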

How the data were processed

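Read counts per gene symbol were deposited by the authors in 1 table of 12 libraries. Per the submitters' processing notes, mm10, STAR 2.7.1a and featureCounts were used. The sources used here give no strand setting, annotation or rule for multi-mapping reads, which leaves overlapping, antisense and paralogous genes uncertain. Per the labels' protocols, stranded libraries were made from 500 ng of RNA (integrity number at least 8.9) and read as 101 bp pairs. The 1830 rows that hold only multiples of 11 (0.144% of counts, no member) were left out of library sizes and tests. Counts were tested in R 4.3.3 with edgeR 4.0.16 (quasi-likelihood, TMM, filterByExpr, two-sided) on the libraries compared, or on all 12 for the difference of effects. P-values were adjusted by Benjamini and Hochberg over all genes tested, with calls below 0.05. DESeq2 1.42.0, limma 3.58.1 (voom), other scaling, filters and designs, and a GC and length correction chosen after seeing the data, were alternatives. The tests were checked on simulated data. Of 1.5-fold changes, 76% were called for the PFC lesion, 24% for the STR lesion and 18.2% for the difference of effects. Between regions 45% were called in controls and 51% after the lesion. An uncalled gene in any of these fits therefore does not show the absence of a small change. Named genes are the 10 members, up to 4 genes per list with the smallest p in each lesion contrast, and 3 likeness genes per member. Members and lists were chosen with earlier results of these data known. Gene positions and exon lengths are GENCODE M21, promoters RefSeq.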

Additional observations from a re-analysis of the deposited data

How the results depend on the processing

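The number of the 10 genes called for the lesion in PFC was 0, but 1 (Chga) with upper-quartile factors, DESeq2, voom, the GC and length correction and that correction with the replicate block, and 0 to 1 when 1 library was left out. In STR it was 0, but 1 (Cartpt) in the fit of all 12 libraries. For the difference of effects it was 0, but 1 (Chga) without lesioned STR library 1 and control STR library 2. For the regions after the lesion it was 8, and 5 to 9 without 1 library. The causes were not tested, apart from the fewer samples of a fit with 1 library less. With 1 library left out, a group keeps 2 libraries. Without the pair of striatal libraries, which was picked out in these same data, each striatal group keeps 2.

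Counts over all genes moved more. For PFC 803 genes were called, but 30 in the fit of all 12 libraries and 195 to 1010 without 1 library. The PFC split was 484 higher and 319 lower, but 340 and 339 with the GC and length correction. For STR 4 were called, but 529 with DESeq2, 1040 in the fit of all 12 libraries, 55 without the pair of libraries that stood apart, 11 with the GC and length correction, 0 with voom, with the multiples of 11 kept or with that correction and the replicate block, and 0 to 2 without 1 library. For the difference, 12 were called, but 116 with DESeq2, 101 without the pair, 0 with voom, 5 with the multiples of 11 kept, 6 with the GC and length correction and replicate block, and 0 to 172 without 1 library.

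Replicate numbers are shared by the groups, and the labels name no shared animal. Same-numbered lesioned and control libraries of a region had r from -0.12 to 0.0099 over genes. For PFC and STR libraries of the same treatment, same-numbered r was 0.081, 0.0046 and 0.093 in controls and 0.097, 0.047 and -0.0097 after the lesion. Differently numbered pairs of these groups had r from -0.12 to 0.025 and from -0.078 to 0.069. With the replicate block the members called were 0, 0 and 0 for the lesion in PFC, the lesion in STR and their difference, and 7 and 8 between regions, while the genes called in all were 634, 0, 6, 5590 and 5853. Of the genes named from other lists, Cadps2 was lost in PFC with the block (adjusted p = 0.0577). Among the members after the lesion, the block lost Nmb between regions (0.0752) and called Chga (0.0290).

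Some uncalled values changed sign, and no called value did. The Vgf lesion effect in PFC (log2, main value -0.01) was 0.0019 with upper-quartile factors, 0.016 with the GC and length correction, 0.013 with that and the replicate block and 0.0041 in the fit of all 12 libraries. Vgf between regions after the lesion was 0.055 and 0.058 with the correction, without and with the block. The Nmb lesion effect in STR (0.00) was -0.019 with upper-quartile factors, -0.0094 with voom, -0.0029 at a minimum of 1 CPM in 3 libraries and -0.0022 with the replicate block. Without the pair of striatal libraries, the lesion effect in STR was -0.049 for Vgf, 0.090 for Adcyap1 and -0.064 for Tac2, and the difference of effects was -0.042 for Vgf and -0.10 for Tac2.

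Ranges over fits without 1 library follow for values that changed sign. In PFC the lesion effect was -0.092 to 0.0097 for Scg2, -0.073 to 0.056 for Vgf, -0.031 to 0.12 for Tac2 and -0.92 to 0.30 for Nmb. In STR it was -0.30 to 0.065 for Scg2, -0.062 to 0.079 for Vgf, -0.41 to 0.0071 for Chgb, -0.77 to 0.14 for Adcyap1, -0.46 to 0.077 for Nts, -0.12 to 0.35 for Tac2 and -0.11 to 0.085 for Nmb. The difference of effects was -0.25 to 0.12 for Scg2, -0.063 to 0.096 for Vgf, -0.17 to 0.30 for Tac2 and -0.30 to 0.89 for Nmb. Between control regions it was -0.12 to 0.029 for Vgf and -0.21 to 0.97 for Nmb, and after the lesion -0.10 to 0.029 for Vgf. Depth limits Nts and Nmb in PFC, with 10 to 66 reads per library. The alternative of at least 1 CPM in 3 libraries gave no PFC lesion value for Nts.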
